A study of Mus with 8 samples.

Results

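Syndecans and glypicans are the core proteins that hold heparan sulfate at the cell surface. The 9 genes described here are the syndecans Sdc1, Sdc2, Sdc3 and Sdc4 and the glypicans Gpc1, Gpc2, Gpc3, Gpc4 and Gpc6. They were chosen by name, as every probe whose RefSeq accession mapped to one of these genes, which gave 13 probes for 9 of the 22911 genes that the array names. All 9 genes passed the filter on dim probes (a probe had to be well above background on 4 or more of the 8 arrays), as did 16068 genes in all. The material was 8 subcutaneous tumours, formed by transplanted Pan02 cells, a cancer line from mouse pancreas. The 4 Control tumours came from wild type B6 hosts. The 4 Mutant tumours came from B6 hosts of the genotype Ext1 flox/flox; S100a4-Cre, in which a recombinase under S100a4 control removes Ext1, a polymerase of heparan sulfate chains, from fibroblasts and from other host cells that express S100a4. The transplanted cells were the same line in both hosts. Tumours were taken at 36 to 40 days, and each gave RNA of the whole tumour for 1 one-colour array. The comparison asks how tumours differ between hosts with and without this deletion. The arrays read the core proteins' transcripts, not the proteins or the chains on them, so the amount of heparan sulfate was not measured.

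Each core protein carries a few heparan sulfate chains, and the chains bind growth factors, morphogens and matrix proteins and hold them near their receptors. Syndecans cross the membrane, with a short cytoplasmic tail that binds syntenin and links to the cytoskeleton, and their outer part can be shed by proteases. Glypicans are anchored by glycosylphosphatidylinositol (GPI) and act mainly on Hedgehog, Wnt, BMP and FGF signals. In tissues Sdc1 is typical of epithelia and plasma cells, Sdc2 of mesenchymal cells and Sdc3 of nerve and muscle, while Sdc4 is widespread and sits in focal adhesions. Gpc1 is known for its high level in pancreatic cancer.

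Values of a group are given in the order of its tumours 1 to 4. Levels are log2 signals of the probe minus the 75th percentile of the array, so that a step of 1 is a doubling, and differences are Mutant minus Control. A level is compared between tumours and not between genes, since probes differ in brightness. Each array had 61.5% to 67.2% of its 56605 probes well above background and 0 saturated spots. Ext1, the targeted gene, read 3.04, 3.60, 3.64 and 2.02 in the Controls and 2.93, 3.00, 3.41 and 3.24 in the Mutants, a difference of 0.07 (standard error, SE, 0.36, limma adjusted p = 1). Its groups overlapped, and whether its 1 probe lies in the deleted part is not given in the sources used here. As a check of the cancer label, the epithelial markers Krt7, Krt8, Krt18, Krt19, Cdh1 and Muc1 were well above background on 8 of 8 arrays. Cldn4 was so on 2 arrays and Epcam on 0. Of the pancreatic markers, Cela1, Pdx1 and Sox9 were so on 8 arrays and Amy2a5 on 5, while Cpa1, Prss2 and Ptf1a were so on 0. Control 4 stood apart from the other tumours: its fibroblast marker level (markers centred gene by gene on the mean of the 8 tumours, then averaged) was 2.25, with Control 1 to 3 at -1.38 to -0.23, and its skeletal muscle level was -3.51, the lowest of the 8. The fibroblast list had 12 of 12 markers measured, all of them well above background on 8 arrays, and its level ranged from -1.07 to 0.96 in Mutant tumours. In whole tumours, fewer cells of a type and less RNA per cell cannot be told apart.

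None of the 9 core protein genes differed between hosts beyond the spread of the tumours. By limma with Benjamini-Hochberg adjustment over the 16068 genes, 0 of 9 passed at an adjusted p under 0.05, as did 0 genes in all (0%), and at an unadjusted p under 0.05 there were 0 of 9 members and 467 genes, or 2.91%. Groups that did not overlap were found in 0 of 9 members, against 1.42% of all genes (0.716% with Mutant tumours higher and 0.703% with them lower). A difference of at least 1 in size was found in 1 of 9 members, Sdc2, and in 2.79% of all genes. In 7 of 9 members the mean was higher in Mutant tumours and in 2 it was lower, where 52.4% of all genes had a difference above 0. The median difference of the members was 0.19, against 0.01 over all genes. It was 0.05 without Mutant 2, 0.10 without Mutant 1 and 0.34 without Control 4, and 0.47 with array weights. With 4 tumours a group the two-sided exact permutation test, which reassigns the tumours in all 70 ways, cannot give a p below 0.0286.

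The members varied widely from tumour to tumour. The SD left within groups had a median of 0.51 over the members and 0.27 over all genes, and it was above the median of all genes in 8 of 9 members. For Gpc3 this SD was 2.61, larger than in 99.5% of genes, for Sdc2 it was 1.95 (98.2%) and for Gpc4 1.56 (96.6%). The Gpc3 value includes 2 arrays on which its probe was not well above background, and the order of these genes depends on the background correction: with normexp the SE of the Gpc3 difference was 0.82 in place of 1.62, below the 0.96 of Sdc2 and above the 0.76 of Gpc4. Sdc3 was the steadiest member, with an SD of 0.23 and a range of 0.70 over the 8 tumours.

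**Figure D1:**
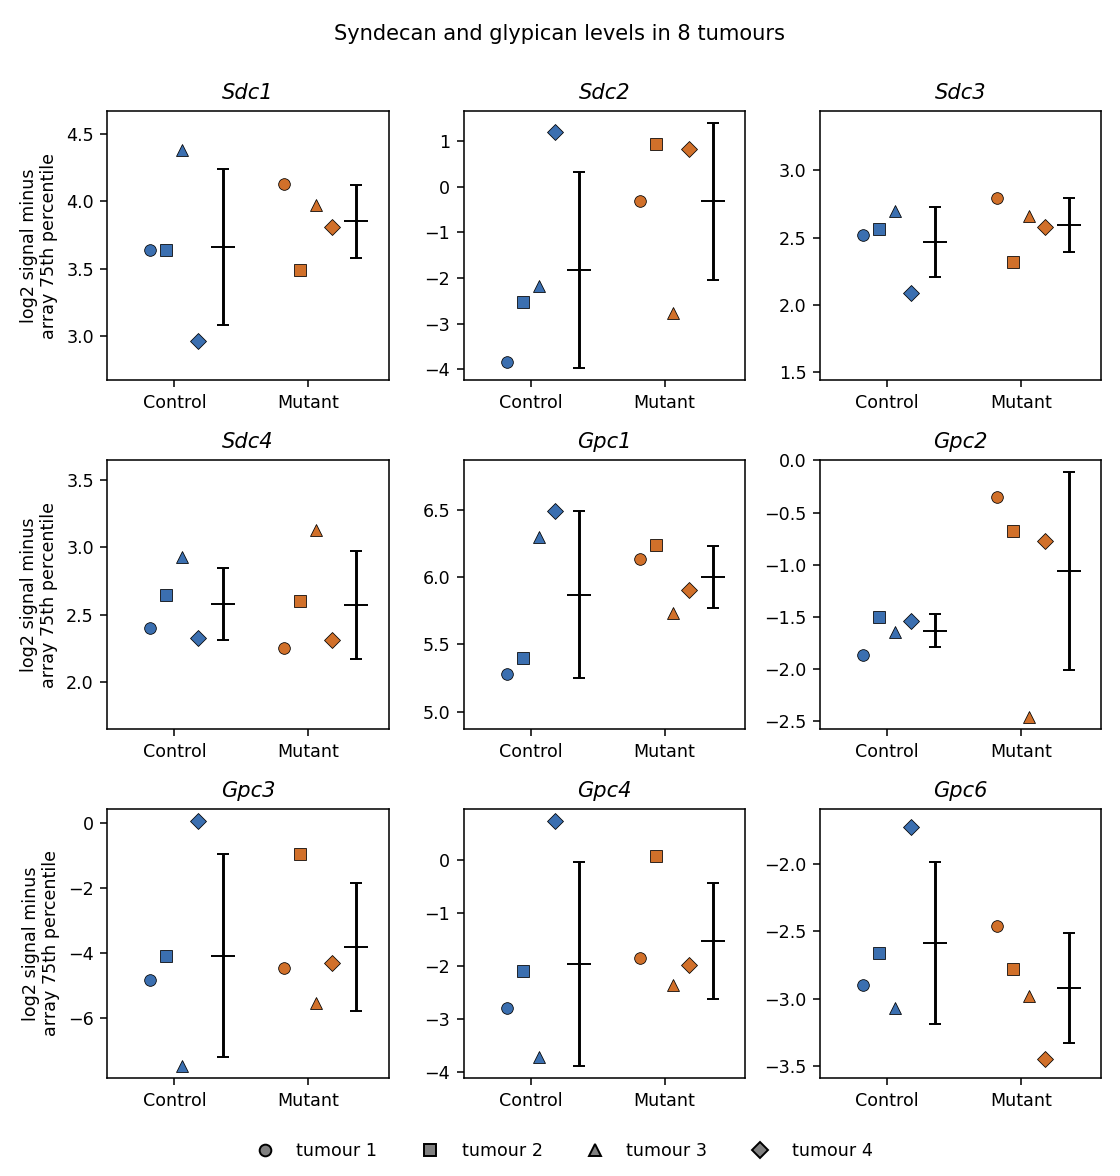
Level of each core protein gene in each tumour, as log2 signal minus the array's 75th percentile, with Control tumours in blue, Mutant tumours in orange, and the group mean and SD as bars (n = 4 each). Each panel has its own scale: Gpc3 ranges over 7.53, Sdc2 over 5.05 and Gpc4 over 4.46, Sdc3 over 0.70, and the groups overlap in every panel.

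Among the syndecans, Sdc1, the epithelial and plasma cell syndecan that is also known as CD138, read 3.64, 3.64, 4.38 and 2.96 in the Controls and 4.13, 3.49, 3.97 and 3.81 in the Mutants. Both the highest and the lowest tumour were Controls, and the Mutant tumours lay between them. The means were 3.66 ± 0.58 and 3.85 ± 0.27 (SD, n = 4 each), a difference of 0.19 (SE 0.29, 95% interval -0.48 to 0.87, limma adjusted p = 1, two-sided exact permutation p = 0.6). Without Control 4 the difference was -0.04. Sdc1 has 3 probes on the array, which gave differences of 0.19, 0.15 and 0.31, and Control 3 was the highest and Control 4 the lowest tumour on each. Plasma cell markers had 7 of 8 measured and Tnfrsf17 not, and only 4 of the 7 were well above background on all 8 arrays. Their level was -0.99 to 0.91 in Control and -1.58 to 1.43 in Mutant tumours. Their relation with Sdc1 over the 8 tumours, 1 of 99 computed, was weak (Pearson r = -0.12, exact permutation p = 0.778, adjusted 0.974, Spearman rho = 0.02, p = 0.977, adjusted 1, and r = -0.06 without Mutant 3 and Mutant 4).

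Sdc2, the mesenchymal syndecan, had the widest mean difference of the members. Its level was -3.84, -2.53, -2.18 and 1.21 in the Controls and -0.32, 0.95, -2.76 and 0.84 in the Mutants. Control 4 and Mutant 1, 2 and 4 lay above Control 1, 2 and 3 and Mutant 3, with no tumour between -2.18 and -0.32, so that the groups overlapped. The means were -1.83 ± 2.15 and -0.32 ± 1.72 (SD, n = 4 each), 2.85-fold higher in Mutant tumours, a difference of 1.51 (SE 1.21, 95% interval -1.30 to 4.32, limma adjusted p = 1, two-sided exact permutation p = 0.4). The difference was 0.84 without Control 1, 2.53 without Control 4 and 2.32 without Mutant 3, and above 0 under all 24 alternative settings, at adjusted p-values of 0.618 or more. The arrays lay on 1 slide in 2 rows of 4, each with 2 tumours of either group, and the Sdc2 difference was 3.50 in the row of Control 1 and 2 and Mutant 1 and 2, and -0.48 in the other row.

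Sdc3, known from nerve and muscle, read 2.52, 2.56, 2.70 and 2.09 in the Controls and 2.79, 2.32, 2.66 and 2.58 in the Mutants. Control 4 was the lowest tumour and Mutant 2 the next. The difference was 0.12 (SE 0.17, 95% interval -0.27 to 0.50, limma adjusted p = 1, two-sided exact permutation p = 0.514), and it was -0.01 without Control 4. Sdc4, the syndecan of focal adhesions that binds protein kinase C alpha, read 2.40, 2.65, 2.93 and 2.33 in the Controls and 2.25, 2.60, 3.13 and 2.31 in the Mutants. Its group means, 2.58 ± 0.27 and 2.57 ± 0.40 (SD, n = 4 each), were 0.997-fold apart, with a 95% interval of -0.53 to 0.52 on the log2 scale (limma adjusted p = 1, two-sided exact permutation p = 1). The Sdc4 difference, which was just below 0, was above 0 without Control 2, Control 3, Mutant 1 or Mutant 4.

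Among the glypicans, Gpc1, the glypican of pancreatic cancer cells, read 5.28, 5.40, 6.30 and 6.49 in the Controls and 6.13, 6.24, 5.73 and 5.90 in the Mutants. The Control tumours split into a low and a high pair, and the 4 Mutant tumours lay between the pairs. The difference was 0.13 (SE 0.30, 95% interval -0.56 to 0.83, limma adjusted p = 1, two-sided exact permutation p = 0.686). Within the slide rows it was 0.85 and -0.59, and it was -0.06 without Control 1 and -0.03 without Control 2.

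Gpc2, also called cerebroglycan and known from the developing nervous system, had the smallest SD of the members in Control tumours, and a larger one in Mutant tumours. It read -1.86, -1.50, -1.64 and -1.54 in the Controls and -0.35, -0.68, -2.46 and -0.77 in the Mutants. All Controls were lower than Mutant 1, 2 and 4 and higher than Mutant 3. The means were -1.63 ± 0.16 and -1.06 ± 0.95 (SD, n = 4 each), 1.48-fold higher in Mutant tumours, a difference of 0.57 (SE 0.43, 95% interval -0.43 to 1.56, limma adjusted p = 1, two-sided exact permutation p = 0.286). Without Mutant 3 the difference was 1.03, and Gpc2 was then the 1 member whose groups did not overlap. The row with Control 1 and 2 gave 1.17 and the other row -0.03. Skeletal muscle markers, with 11 of 12 measured and Pax7 not, were also highest in Mutant 1, 2 and 4: their level was -0.64, 0.46, -1.87 and -3.51 in the Controls and 1.96, 2.75, -0.79 and 1.65 in the Mutants. Of the 11, 8 were well above background on all 8 arrays. With the muscle level as a covariate, a setting added after the data were seen, the Gpc2 difference was -0.12 (SE 0.53 in place of 0.43). All 11 measured muscle markers had higher means in Mutant tumours, with a median difference of 2.86. Muscle and host therefore cannot be told apart in this fit. The relation of Gpc2 with the muscle level did not pass (Pearson r = 0.69, exact permutation p = 0.061, adjusted 0.276, Spearman rho = 0.76, p = 0.0368, adjusted 0.26).

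Gpc3, which binds Hedgehog and restrains growth, had the widest range of processed signal, with its lowest values not well above background. Its level was -4.83, -4.11, -7.48 and 0.06 in the Controls and -4.46, -0.97, -5.55 and -4.32 in the Mutants, and the probe was not well above background in Control 3 and Mutant 3. Control 4 and Mutant 2 lay far above the other tumours of their groups. The means were -4.09 ± 3.12 and -3.82 ± 1.98 (SD, n = 4 each), a difference of 0.26 (SE 1.62, 95% interval -3.50 to 4.03, limma adjusted p = 1, two-sided exact permutation p = 0.914). The difference was 1.65 without Control 4, -0.86 without Control 3 and -0.69 without Mutant 2, and with normexp background correction it was -0.23.

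Gpc4, a glypican whose gene lies beside Gpc3 with 0 genes listed between them, showed the same order at its ends. Its level was -2.78, -2.09, -3.72 and 0.74 in the Controls and -1.85, 0.07, -2.36 and -1.98 in the Mutants. As for Gpc3, Control 4 was highest, Mutant 2 next and Control 3 lowest. The difference was 0.43 (SE 0.97, 95% interval -1.82 to 2.68, limma adjusted p = 1, two-sided exact permutation p = 0.686), and it was 1.33 without Control 4, -0.15 without Control 3 and -0.10 without Mutant 2. Of its 2 further probes, both for a predicted transcript, one gave a difference of 0.71 with Control 4 again highest. The other was well above background on 0 Control and 2 Mutant arrays.

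Gpc6, a glypican that promotes Hedgehog and Wnt5a signals in development, was the member with the lowest difference. It read -2.90, -2.66, -3.07 and -1.73 in the Controls and -2.46, -2.78, -2.98 and -3.45 in the Mutants. Control 4 was highest and Mutant 4 lowest, and the other 6 tumours lay close together. The difference was -0.33 (SE 0.33, 95% interval -1.09 to 0.43, limma adjusted p = 1, two-sided exact permutation p = 0.457). Without Control 4 it was -0.04.

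**Figure D2:**
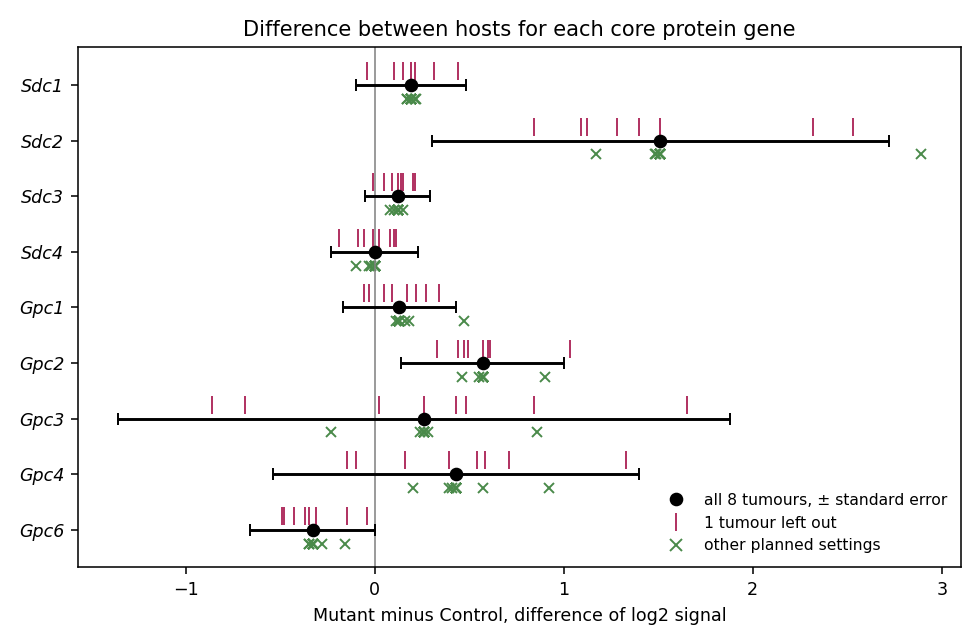
Mutant minus Control difference of log2 signal for each core protein gene, with its standard error (black), the values with 1 tumour left out (red ticks) and under the other planned settings (green crosses). Sdc2 and Gpc2 stay above 0 and Gpc6 below 0 in all values drawn, while the other 6 genes cross 0 when single tumours are left out.

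Some of the core proteins varied together over the 8 tumours. Of the 36 pairs of members, 3 had an adjusted permutation p under 0.05 by Pearson's r and 1 by Spearman's rho. Gpc3 and Gpc4 went together (r = 0.98, exact permutation p = 0.000719, adjusted 0.0129; rho = 0.88, p = 0.00724, adjusted 0.13), and over the 6 tumours without Control 4 and Mutant 2 r was 0.91. Sdc1 and Sdc3 formed the other pair (r = 0.94, exact permutation p = 0.000422, adjusted 0.0129; rho = 0.98, p = 0.000397, adjusted 0.0143), with r = 0.94 without Control 3 and Control 4. Across these pairs, Sdc1 and Gpc3 had r = -0.90 (exact permutation p = 0.0026, adjusted 0.0312; rho = -0.81, p = 0.0218, adjusted 0.157), which was -0.64 without Control 3 and Control 4. Under 4 other settings of background and scaling, r for Sdc1 and Gpc3 was between -0.93 and -0.86. The other relations across the pairs did not pass: r was -0.88 for Sdc3 and Gpc3 (exact permutation p = 0.0061, adjusted 0.0549), -0.84 for Sdc1 and Gpc4 (exact permutation p = 0.0104, adjusted 0.0746) and -0.84 for Sdc3 and Gpc4 (exact permutation p = 0.0127, adjusted 0.0765). Their rho values were -0.74, -0.60 and -0.48 (adjusted 0.275, 0.366 and 0.461), and without the 2 farthest tumours r was -0.35, -0.41 and -0.01.

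Gpc3 and Gpc4 followed the fibroblast markers. In the order of fibroblast level, from Control 3 at -1.38 and Mutant 3 at -1.07 to Mutant 2 at 0.96 and Control 4 at 2.25, the Gpc4 level went from -3.72 and -2.36 to 0.07 and 0.74. Gpc3 was not well above background in Control 3 and Mutant 3, so its levels there have no exact size, and it read -0.97 in Mutant 2 and 0.06 in Control 4. Over the 99 relations of 9 members with 11 marker lists, 7 had an adjusted permutation p under 0.05 by r and 1 by rho. For Gpc3 and the fibroblast level r was 0.96 (exact permutation p = 0.000223, adjusted 0.011; rho = 0.93, p = 0.00223, adjusted 0.0737), and for Gpc4 it was 0.95 (exact permutation p = 0.000347, adjusted 0.0115; rho = 0.95, p = 0.00114, adjusted 0.0565). Control 4 and Mutant 2 stand apart on this scale, and over the other 6 tumours r was 0.86 for Gpc3 and 0.83 for Gpc4. For Gpc3, r was 0.95 without Control 3 and 0.96 without Mutant 3, each left out by itself. Slide rows and groups hold 4 tumours each, too few for values of their own.

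With the fibroblast level as a covariate, the spread left for both glypicans was smaller and neither differed between hosts by the test. In this fit, a setting added after the data were seen, the standard error of the Gpc3 difference was 0.49 in place of 1.62 and the difference 0.35, and for Gpc4 the standard error was 0.27 in place of 0.97 and the difference 0.49 (limma adjusted p = 0.961 and 0.96). Sdc2 kept a difference of 1.57 (SE 0.73, limma adjusted p = 0.96). For Sdc2 and the fibroblast level r was 0.74 (exact permutation p = 0.0266, adjusted 0.19; rho = 0.74, p = 0.0458, adjusted 0.267), and 0.50 without Control 4 and Mutant 2. The relation of Sdc2 with the T cell level was higher but did not pass either (r = 0.82, exact permutation p = 0.0158, adjusted 0.142; rho = 0.88, p = 0.00724, adjusted 0.143), with r = 0.86 without Control 2 and Mutant 3.

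**Figure D3:**
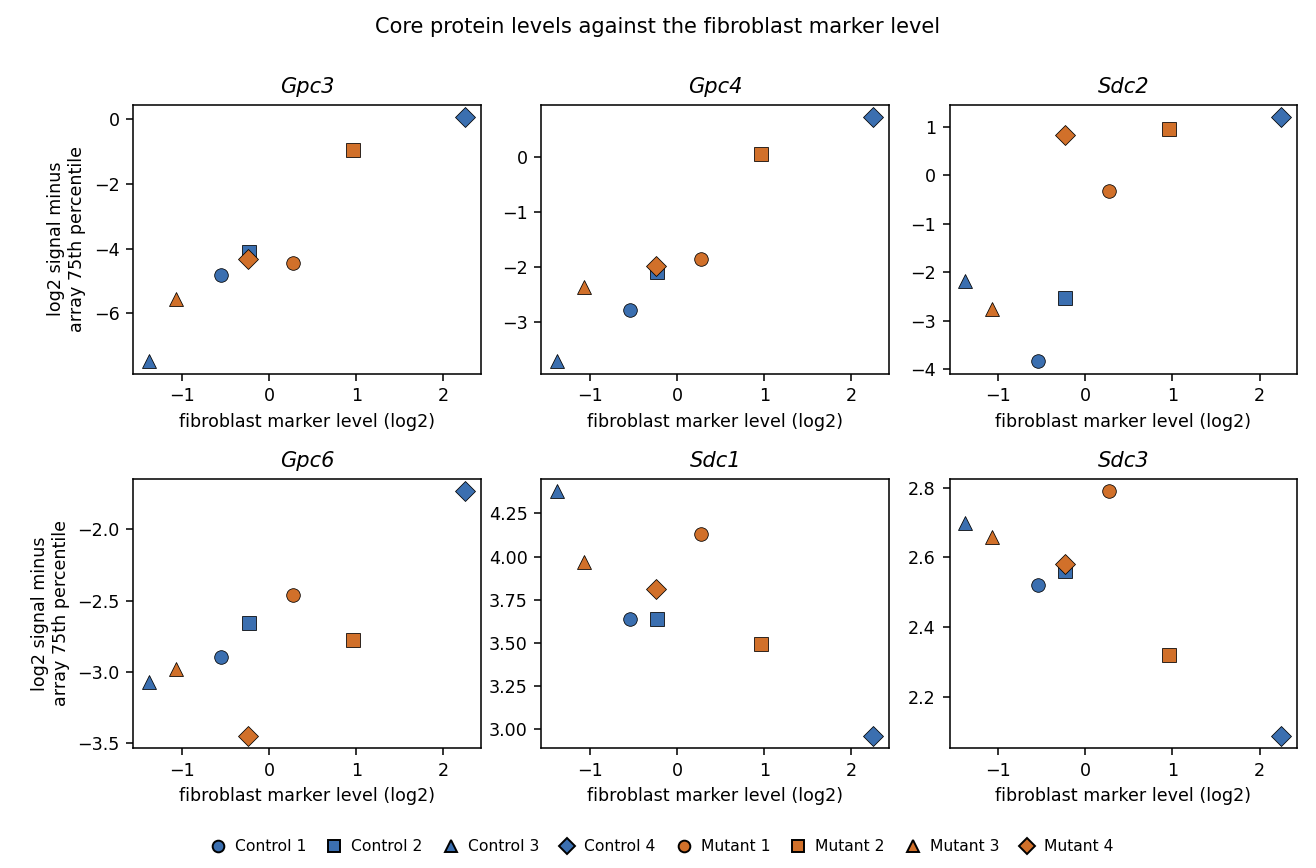
Levels of 6 core protein genes (log2 signal minus the array's 75th percentile) against the fibroblast marker level of the same tumour, 1 point a tumour, Control in blue and Mutant in orange. Gpc3 and Gpc4 are highest in Control 4 and Mutant 2, the tumours of highest fibroblast level, and Sdc1 and Sdc3 are lowest in Control 4.

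Markers of Schwann cells and nerve gave relations of like size. Of 8 markers all were measured, 7 of them well above background on 8 arrays, and their level was -0.78 to 1.83 in Control and -0.50 to 0.53 in Mutant tumours, with Control 4 again highest. Gpc3 had r = 0.92 with this level (exact permutation p = 2.48e-05, adjusted 0.00246; rho = 1.00, p = 4.96e-05, adjusted 0.00491) and Gpc4 r = 0.92 (exact permutation p = 0.000694, adjusted 0.0138; rho = 0.88, p = 0.00724, adjusted 0.143), with 0.87 and 0.77 without Control 4 and Mutant 2. Sdc1 ran the other way at r = -0.90 (exact permutation p = 0.00067, adjusted 0.0138; rho = -0.81, p = 0.0218, adjusted 0.24), or -0.74 without those 2 tumours. Sdc3 had r = -0.92 (exact permutation p = 0.00347, adjusted 0.0491; rho = -0.74, p = 0.0458, adjusted 0.267) but -0.43 without them, so this relation rests on those tumours. Which of the fibroblast and nerve levels these genes follow was not tested, as both peak in Control 4. The rank order of Gpc3 includes Control 3 and Mutant 3, where its probe was not well above background. Its r with the nerve level was 0.94 without Control 3 and 0.92 without Mutant 3, each left out by itself.

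Gpc1 had its strongest relation with T cell markers (r = 0.89, exact permutation p = 0.00315, adjusted 0.0491; rho = 0.79, p = 0.0279, adjusted 0.251), with r = 0.91 without Control 2 and Mutant 3. Under 4 other settings of background and scaling this r was 0.83 to 0.90. It was lowest with median centring, where the exact permutation p was 0.0116 before adjustment. The adjustment was not repeated there, and the adjusted p of 0.0491 lies just under 0.05. The T cell level, from 8 of 8 measured markers of which Thy1 is also in the fibroblast list, was -0.74, -1.74, 0.34 and 1.52 in the Controls and 0.42, 0.75, -0.99 and 0.42 in the Mutants. Of these markers 7 were well above background on all 8 arrays. Control 1 and 2, the tumours lowest in Gpc1, were among the 3 lowest in T cell level. The part of T cells in the Gpc1 level was not tested.

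**Figure D4:**
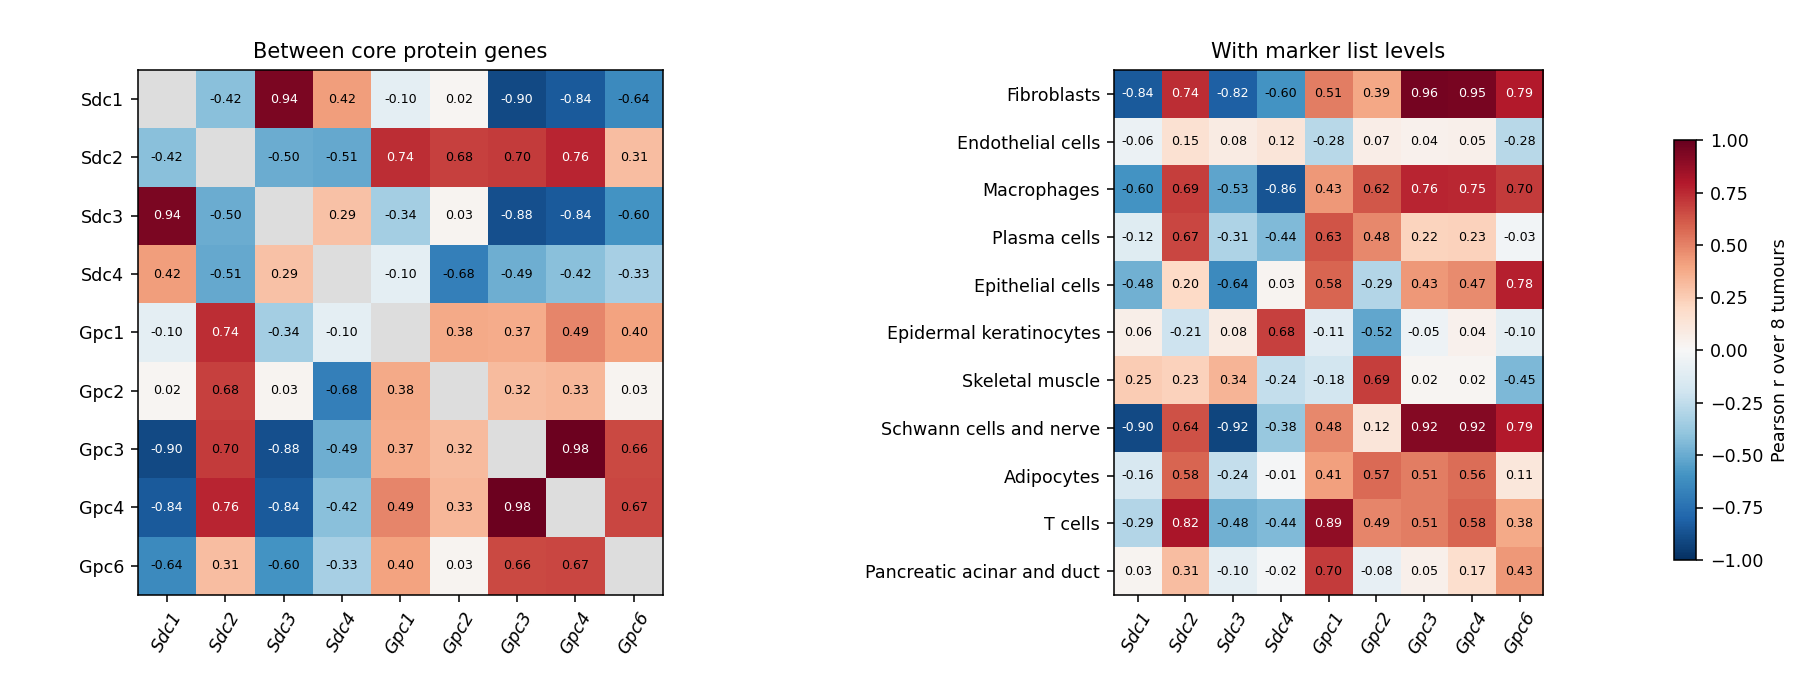
Pearson r over 8 tumours between the core protein genes (left) and between them and the levels of 11 marker lists (right), with red for positive and blue for negative values. The left panel shows Gpc3 with Gpc4 at 0.98 and Sdc1 with Sdc3 at 0.94, and the right panel shows the fibroblast row at 0.96 and 0.95 for Gpc3 and Gpc4.

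The genes most like each member over the 8 tumours, out of all genes tested, are given as a description, since with 8 points many genes reach a high r. Nearest to Gpc4 were Hdgfl3 (r = 0.996), Mn1 (0.991) and Gpr176 (0.989), and nearest to Gpc3 were Runx1t1 (0.989), Slc16a9 (0.989) and Ttc30a1 (0.987). Nearest to Sdc2 were Gimap6 (0.992), Prkcq (0.988) and Gimap5 (0.978), of which the Gimap GTPases and the kinase gene Prkcq are known from lymphocytes. Gpc1 was most like Tmbim1 (0.983), the nonclassical class I gene H2-T23 (0.982) and the natural killer receptor gene Klra16 (0.974). Sdc1 was most like Thoc1 (0.990), the mitochondrial import gene Timm17a (0.985) and the kinase gene Akt1 (0.984), and Sdc3 like Pex6 (0.977), Wbp2 (0.975) and Crybb1 (0.970). Gpc6 had the myelin gene Pmp22 (0.957), Rufy1 (0.953) and the smooth muscle myosin gene Myh11 (0.951) nearest, Gpc2 had Cabp4 (0.969), Atp8a1 (0.961) and Pdlim2 (0.949), and Sdc4 had Stk24 (0.955), BC048403 (0.955) and Gpr161 (0.948).

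The rest of the pathway had no gene past the threshold in either direction. The list for shedding and release at the cell surface, which also holds Notum and Furin, had 10 measured of 11. Of these 7 were above 0, with a median difference of 0.17. Mmp7, the protease matrilysin that sheds Sdc1 and Sdc2, was well above background on 0 of 4 Control and 4 of 4 Mutant arrays, where it read 1.59, -1.61, -2.68 and 0.24. Its level was at least 34.7-fold higher in Mutant tumours. Mmp7 passed the filter through the Mutant arrays alone. Its limma test (unadjusted p = 0.00024, adjusted p = 1) used Control signals that were not well above background, so it gives no support to the bound. This bound sets the mean of the Mutants against a mean over the Control arrays. Each Control array gave its dimmest signal still called well above background or, where it was higher, the signal of the Mmp7 probe itself. The bound fell to 20.8-fold when Mutant 1 was left out, and came to 55.9-fold when Mutant 3 was. Notum, a Wnt deacylase that binds glypicans, differed by 0.88 (SE 0.35), and the gelatinase Mmp9 by 0.51 (SE 0.52).

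Among 12 partners of the syndecan tail, all measured, 10 were below 0 and 2 above, with a median of -0.07. The exception with the smallest p was Sdcbp, which encodes syntenin, the scaffold that carries syndecans into exosomes. It read 2.74, 2.97, 2.67 and 2.72 in the Controls and 3.08, 2.93, 3.13 and 3.06 in the Mutants. Only Control 2 and Mutant 2 overlapped, and the difference was 0.28 (SE 0.11, limma unadjusted p = 0.0331, adjusted p = 1). Ezr, the membrane linker ezrin, differed by -0.34 and the Rac exchange factor Tiam1 by -0.49. Genes of the GPI anchor that glypicans need had 7 of 8 above 0 with a median of 0.05, led by the inositol deacylase Pgap1 at 0.89 (SE 0.71), then Piga at 0.14 and Gpaa1 at 0.09.

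Enzymes that build and edit the chains were 24 measured of 29, with 14 above 0, 10 below and a median of 0.06. The polymerase subunit Ext2 read -3.25, -2.97, -3.16 and -3.23 in the Controls and -3.34, -3.62, -3.43 and -3.33 in the Mutants, a difference of -0.28 (SE 0.12, limma unadjusted p = 0.0424, adjusted p = 1). It was the 1 gene of the 24 measured whose groups did not overlap, where 1.42% of all genes had such groups (0.703% with Mutant tumours lower). The endosulfatase Sulf2 differed by 0.26 and the chain initiator Extl3 by 0.24. Of 8 measured other proteoglycans that can carry heparan sulfate, 5 were above 0 with a median of 0.01, among them Nrp1, a coreceptor of VEGF and semaphorins, at 0.40, Cd44, the hyaluronan receptor, at -0.28 and Srgn, the granule proteoglycan serglycin, at -0.22. Of 18 measured ligands 7 were above 0, with a median of -0.04: pleiotrophin (Ptn), which binds Sdc3, differed by 3.15 (SE 1.08), Vegfa by -0.61 and Ihh by 0.43. The groups of each of these ligands overlapped, for Ptn with Mutant 3 at 0.70 and Control 3 at 2.66. Of 16 receptors that syndecans and glypicans assist, 9 were above 0 with a median of 0.02, and the VEGF receptor gene Flt1 differed by -0.49, Lrp6, the Wnt coreceptor, by -0.17 and the HGF receptor gene Met by 0.38. Each gene named here had a limma adjusted p = 1.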

How the data were processed

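RNA of 8 tumours was read on Agilent one-colour arrays, from 0.5 ug labelled with Cy3 per the labels' protocols. Intensity was extracted with Agilent software, Feature Extraction, in version 10.7.3.1 per the file headers and 9.1 per the submitters' processing notes. The deposited processed signal is linear and background subtracted, and arrays were not scaled to each other. Flag columns, which have no unit (other), were deposited beside it. In the value table that the authors deposited, intensity is repeated: for 99.463% to 99.505% of probes it equals the processed signal within 0.01%, its column medians are 52.8 to 61.8, and its scale is linear with no centring.

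Outlier spots (66 to 117 an array) were dropped, repeated spots averaged and log2 values centred on the array's 75th percentile (575.9 to 740.7). Unversioned RefSeq accessions were looked up in a RefSeq gene table (GRCm38.p6), which named 32994 of 56605 probes (58.3%). The array design names another build, so no coordinates are given. A probe was kept if 4 or more of the 8 arrays had it well above background, and each gene was read from its probe of highest mean. Groups were compared by limma 3.58.1 in R 4.3.3, and correlations by exact permutation in Python 3.11.15. Arrays give no count depth; 4 tumours a group limit the precision. The design text gives 4 mice a group, and tumours were taken as independent. On data simulated from the 16068 genes, 50.4% of 2-fold and 80.9% of 4-fold changes were recovered, and 6.3% of calls were false. The simulation drew noise independently for each gene and placed 200 changed genes at random. The median SD within groups was 0.27 over all genes and 0.51 over the members, so these shares do not give the power for the members.

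Members, lists and settings were chosen with earlier results of these data known. Named are the members, up to 3 genes of smallest unadjusted p in each pathway list and the 3 genes most correlated with each member, leaving out predicted models. Genes named in the check of the label come from the marker lists. Alternatives were normexp (offset 50, on median spot signals), quantile and median scaling, 3 filters, the mean of a gene's probes, each probe by itself, the value table, array weights, a trend in the variance, blocks for the replicate number or the slide row and leaving out each tumour; covariates, the removal of Control 4 with Mutant 2, and other settings for correlations were added after the data were seen.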

Additional observations from a re-analysis of the deposited data

How the results depend on the processing

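No member and no gene passed under any of 24 alternative settings, and the median difference of the members stayed above 0, at 0.05 to 0.34 with 1 tumour left out and 0.47 with array weights. Of 215 differences recomputed, 200 kept their sign. Of the 15 that turned, 3 came from other settings: with normexp the Gpc3 difference was -0.23, with the muscle level as a covariate Sdc4 was at 0.19 and Gpc2 at -0.12, and the other 12 came from leaving out 1 tumour. The ranges with 1 tumour left out were -0.04 to 0.44 for Sdc1, -0.01 to 0.21 for Sdc3, -0.19 to 0.11 for Sdc4, -0.06 to 0.34 for Gpc1, -0.86 to 1.65 for Gpc3 and -0.15 to 1.33 for Gpc4. The number of members whose groups do not overlap was 0 to 1 with a tumour left out, the 1 being Gpc2 without Mutant 3. Gpc3 has no value where all 8 arrays must be well above background. Over all genes, tumours with the same replicate number did not deviate together (correlations of 0.08, -0.31, 0.05 and -0.31). This does not exclude a pairing, and the sample titles name none. With the replicate block the median difference of the members was 0.19 and 0 genes passed. The SE of the difference went from 0.23 to 0.13 for Sdc4, from 1.21 to 0.91 for Sdc2 and from 1.62 to 1.30 for Gpc3. It rose from 0.30 to 0.34 for Gpc1 and from 0.33 to 0.39 for Gpc6. Of the correlations, 11 were recomputed with each tumour left out and under 4 settings of background and scaling, and these kept their sign. Not recomputed were those of Sdc1 with plasma cells and Gpc4, Sdc3 with Gpc3 and Gpc4, Sdc2 with T cells and Gpc2 with muscle.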

Other observations

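Gpc5, the glypican that is no member here, has 3 probes, and each was well above background on 0 of 8 arrays. At this signal over background its level cannot be compared between hosts.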
